A study of Homo sapiens with 16 samples.

Results

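The response of MDA-MB-231 cells to high glucose was examined at the level of pathways and gene families. MDA-MB-231 is an established human breast cancer cell line that lacks the estrogen receptor and has mesenchymal features. The comparison used the 8 MDA-MB-231 samples of a 16-sample RNA sequencing series, 4 cultured in 25 mM glucose and 4 in 5 mM glucose for 48 hours, and the high glucose condition stood for hyperglycemia. Members were the genes with at least 0.5 CPM (counts scaled to the library total) in 2 or more of these 8 samples, which were 14884 of the 18332 genes in the deposited table. According to the study's methods, cells were conditioned in low glucose, plated, washed the next day and kept without serum in medium of either glucose level. Mannitol was added as an osmolarity control in some experiments of the study, and its use in these cultures was not stated. The other 8 samples were MDA-MB-468 cells, another estrogen receptor-negative line cultured at the same glucose levels for the same time. Whether the 4 replicates of a group were separate cultures was not stated, so the p-values measure the spread between these samples, which may be technical.

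Glucose enters cells through facilitative transporters and is phosphorylated by hexokinases, after which it feeds glycolysis, the pentose phosphate pathway and the hexosamine pathway that supplies sugars for protein glycosylation. Glucose phosphates also act on transcription through factors of the MondoA and ChREBP family, whose targets include arrestin-like genes that limit glucose uptake. Amino acid shortage and stress in the endoplasmic reticulum raise translation of the transcription factor ATF4, and the E2F, B-MYB and FOXM1 factors time the transcription of genes for DNA replication and mitosis.

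Values below are normalized read counts, and a fold change is the difference of mean log2(count + 1) at 25 mM minus that at 5 mM, with its standard error (SE). A gene is said to have risen or fallen when its adjusted p in limma was below 0.05. The line held between 15587270 and 24425916 reads per library, so that 3 reads corresponded to 0.123 to 0.192 CPM, and the first principal component, with 18.9% of the variance, separated the 2 glucose groups. Most markers fitted the label. Of 8 listed as present, VIM, CD44, AXL, MSN, NT5E, CAV1 and ZEB1 were at 83.6 CPM or more, but SPARC had only 2 to 9 reads. Of those listed as low, ESR1 had 0 to 3 reads, FOXA1 0 to 2 and CDH1 5 to 11, whereas ERBB3 (152 to 215 reads), GATA3 (111 to 218) and EPCAM (190 to 329) were detected in each sample. The summed level of the 4 stromal and immune markers found, of 7 listed, was 143 to 157 CPM at 5 mM and 138 to 150 CPM at 25 mM, most of it CD68, with DCN at 0 to 1 reads.

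In all, 850 genes rose (5.71% of those tested) and 1395 fell (9.37%), together 15.1%. The changes were small, since 2057 of the 2245 called genes (91.6%) changed by less than 0.5 on the log2 scale and their median absolute change was 0.22. Leaving out high glucose replicate 1 left 561 rises. With quantile normalization the split became 1027 higher and 1114 lower. The values of the 2 groups did not overlap for 2783 genes, or 18.7%. Long transcripts fell more often than short ones. In the shortest of 5 equal length classes (69 to 1573 bases) 171 genes rose and 91 fell, while in the longest (5570 to 109224 bases) 103 rose and 457 fell. The median change went from 0.047 in the shortest class to -0.045 in the longest. Its part in the gene list results was not tested, and counts with a length correction are given for the lists described with 4 or more calls in a direction that it moved by over 1.5 times, and for some others.

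**Figure D1:**
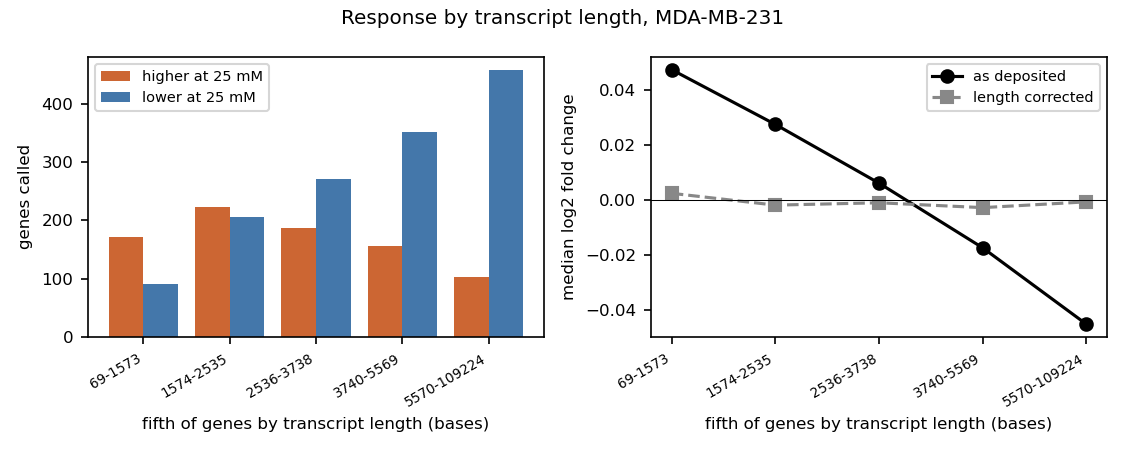
Genes called higher or lower at 25 mM glucose (number of genes) and median log2 fold change, for 5 equal classes of the tested genes by transcript length in bases. The right panel shows medians as deposited (black) and after the length correction (gray). Genes called lower number 91 in the shortest class and 457 in the longest, and the median as deposited goes from 0.047 to -0.045.

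Against these shares, gene lists differed widely. Of 70 mitosis genes 68 fell, and of 61 replication genes 48 fell, whereas 27 of 38 ATF4 target genes rose and none fell. Ribosomal proteins of mitochondria (1 of 74 rose), complex I of the respiratory chain (1 of 37 rose) and proteasome subunits (3 of 35 fell, 1 with quantile normalization) held few calls. Ribosomal proteins of the cytosol had 5 rises of 79, which became 25 with quantile normalization, 2 with the length correction, and 1 without high glucose replicate 2. Lists overlap in places, and a gene was counted in each list that holds it. The lists are described by counts and medians beside the median of all genes, 0.0017, with no test of a list.

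**Figure D2:**
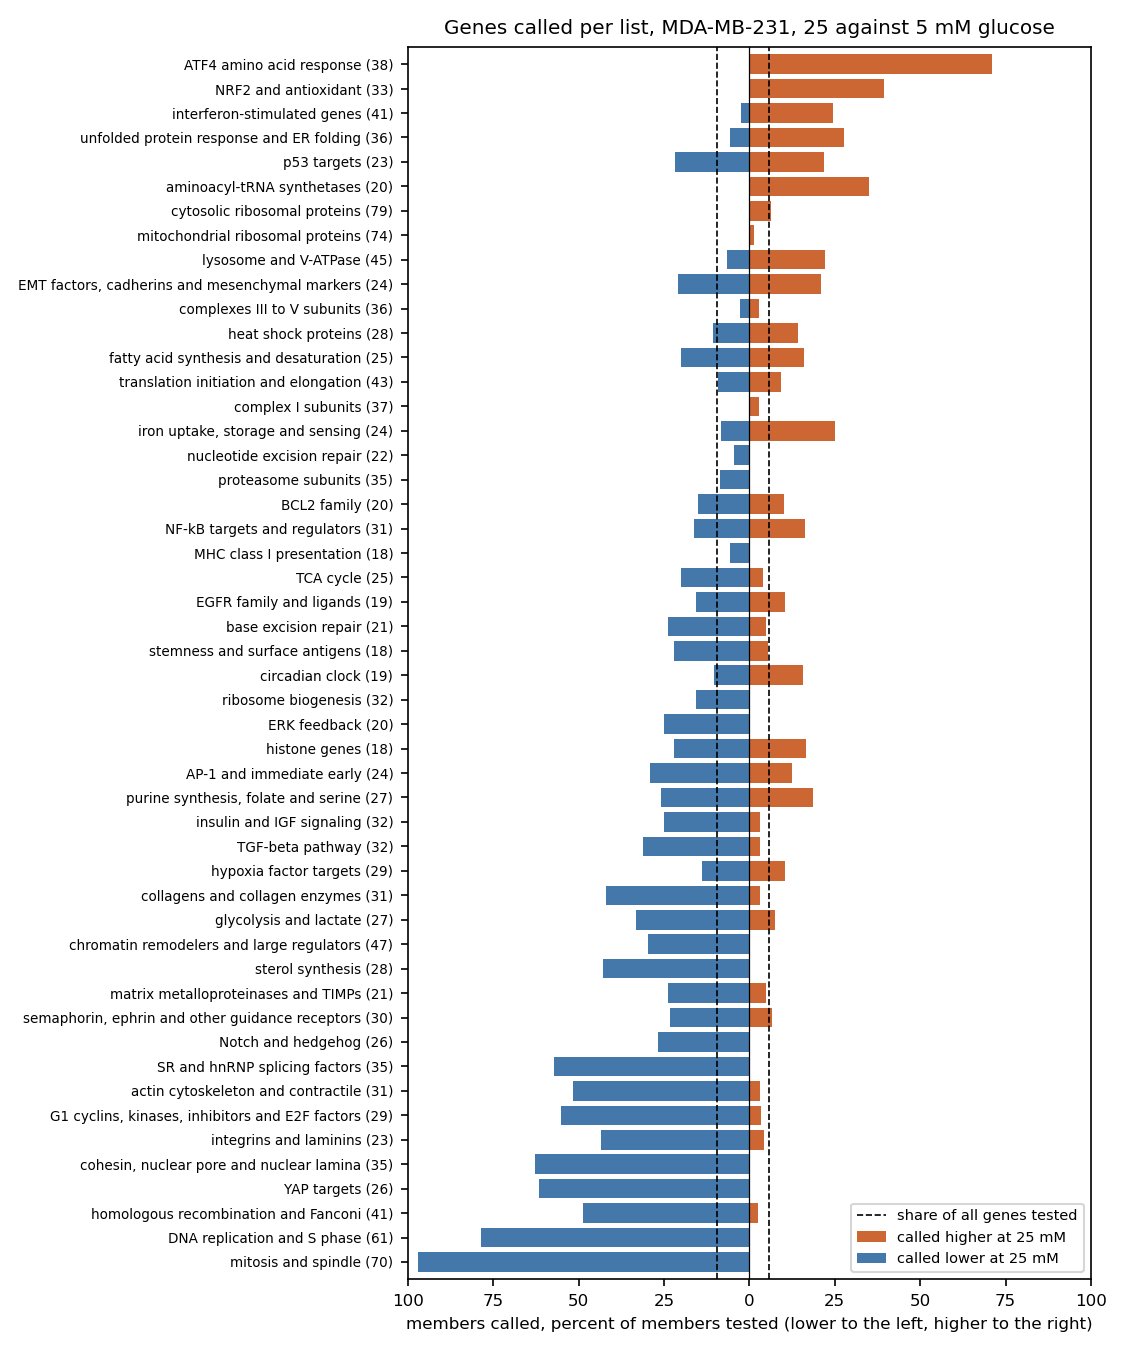
Percent of tested members of each gene list that rose (right) or fell (left) at 25 mM glucose, for lists with 18 or more members tested, ordered by their median log2 fold change. Dashed lines mark the shares over all genes, 5.71% higher and 9.37% lower. Mitosis and replication lie at one end and the ATF4 list at the other.

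Genes found by symbol among those that handle glucose itself mostly moved modestly. Of 8 listed glucose sensing and arrestin-like genes, 7 were found, of which 3 rose and none fell (rises numbered 1 without low glucose replicate 1 or 2 or high glucose replicate 3 or 4). ARRDC2, an arrestin-like protein, had 789.6, 879, 811 and 773 at 5 mM and 966, 965, 949 and 988 at 25 mM, with every high glucose value above every low glucose value (log2 fold change 0.25, SE 0.046, adjusted p = 0.00109). ARRDC4, a target of MondoA that restrains glucose uptake, was scarce, at 14.3, 9.79, 19.0 and 25.7 at 5 mM and 21.4, 31.6, 47.4 and 45.7 at 25 mM, and its groups overlapped (log2 fold change 1.06, SE 0.30, adjusted p = 0.0245), a call lost without low glucose replicate 1 or 2 or high glucose replicate 3 or 4, at 0.83 to 0.999. The largest rise among genes with a mean of 5 CPM or more was that of ENSG00000117289, an identifier that the annotation used here did not pair with a symbol (1.97, adjusted p = 3.52e-15). Lists were matched by symbol, so it was counted in none, and whether it belongs to a list here was not settled.

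SLC2A1 (GLUT1), the main basal glucose transporter, fell. Its counts were 9739.8, 9261, 9861 and 8945 at 5 mM and 8176, 7829.9, 7653 and 7752 at 25 mM, without overlap (log2 fold change -0.27, SE 0.034, adjusted p = 2.88e-05). Among 27 glycolysis and lactate genes 2 rose and 9 fell, with a median of -0.084, and the falls numbered 13 with the length correction and 14 without low glucose replicate 4. LDHA, which converts pyruvate to lactate (chr11:18416107-18429972 on GRCh37), had 15487, 15671, 15234 and 16083 at 5 mM and 12586, 13179.6, 12668 and 12525 at 25 mM (log2 fold change -0.29, SE 0.028, adjusted p = 1e-06). The groups were well apart, as they were for the aldolase isoform ALDOC (-0.39, adjusted p = 0.00367) and for PFKFB3 (-0.21, adjusted p = 0.00196), which makes the activator of phosphofructokinase. PGK1, an ATP-producing step of glycolysis, fell by a smaller margin (-0.11, adjusted p = 0.01). That call was lost with quantile normalization (-0.069) or with the length correction plus a block for replicate number. Hexokinase HK2 gave -0.071, which missed the threshold (adjusted p = 0.241).

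The hexosamine pathway went the other way, with 4 of 8 members higher and none lower (rises numbered 2 without low glucose replicate 3 or high glucose replicate 4). GFPT1, its rate-limiting enzyme, had 4197, 4196, 4148 and 4483 at 5 mM and 5138, 4865, 4955 and 4956 at 25 mM (log2 fold change 0.23, SE 0.032, adjusted p = 9.54e-05). OGA, which removes the O-GlcNAc sugar from proteins, had 2177, 2311, 2161 and 2378 at 5 mM and 2632, 2658, 2646 and 2496 at 25 mM (log2 fold change 0.21, SE 0.038, adjusted p = 0.00102). In both genes all 4 high glucose values lay above all low glucose values. OGT, the enzyme that adds the same sugar, gave -0.0092 (adjusted p = 0.918).

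In mitochondria, the TCA cycle list held 1 rise and 5 falls among 25 genes (falls numbered 2 with quantile normalization, 2 without high glucose replicate 3, 3 without low glucose replicate 2 or 3 or high glucose replicate 1 or 4), and citrate synthase (CS) gave -0.017 (adjusted p = 0.806). IDH2, the mitochondrial NADP-dependent isocitrate dehydrogenase, fell (-0.36, adjusted p = 0.000514), as did fumarase FH (-0.18, adjusted p = 0.00371). Transcripts of the mitochondrial genome fell in 8 of 13 cases, with a median of -0.15, in 10 with the length correction, in 3 with quantile normalization and in 4 without low glucose replicate 1 or high glucose replicate 2, 5 without high glucose replicate 1. MT-CYB, the cytochrome b of complex III, had 20519, 19249.7, 18205 and 20222 at 5 mM and 16315, 15935, 16725 and 16859.6 at 25 mM (log2 fold change -0.25, SE 0.035, adjusted p = 8.53e-05). MT-ND5 of complex I fell by a like amount (-0.21, adjusted p = 0.00118), whereas MT-CO1 of complex IV gave -0.079 and missed the threshold (adjusted p = 0.11). Only 1 of 36 nuclear genes of complexes III to V rose and 1 fell.

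The ATF4 list rose most broadly. ATF4 drives genes for amino acid import and synthesis, and 27 of its 38 listed targets and partners rose, none fell, and the median was 0.22, against a background of 5.71% higher. ATF4 itself had 6773, 7074, 6893 and 6571 at 5 mM and 7859, 7997, 7832 and 7886 at 25 mM (log2 fold change 0.21, SE 0.029, adjusted p = 6.62e-05), so its groups were apart although the change was only 15.7%. CHAC1, an enzyme that degrades glutathione, had 978, 988, 1028 and 925 at 5 mM and 1449.8, 1459, 1326 and 1477 at 25 mM (log2 fold change 0.54, SE 0.045, adjusted p = 3.18e-07). NUPR1, a small stress-induced nuclear protein, had 186, 178, 218 and 159 at 5 mM and 275, 297, 281 and 279.6 at 25 mM (log2 fold change 0.62, SE 0.086, adjusted p = 8.16e-05). The lowest high glucose value of each gene exceeded its highest low glucose value.

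All 3 serine synthesis enzymes rose, PHGDH by 0.29, PSAT1 by 0.38 and PSPH by 0.34, all without overlap between groups. PSAT1, the second enzyme, had 4044, 4204, 3920.2 and 4269 at 5 mM and 5349.8, 5539, 5422 and 5068 at 25 mM (adjusted p = 9.04e-07). ASNS, asparagine synthetase, had 1897, 2056, 1963 and 2033 at 5 mM and 2419.9, 2479, 2444 and 2452 at 25 mM (log2 fold change 0.30, SE 0.034, adjusted p = 9.76e-06). SLC7A11, the cystine importer, had 3621, 3618, 3833 and 3946 at 5 mM and 4826, 4797, 4703 and 4571 at 25 mM (log2 fold change 0.33, SE 0.034, adjusted p = 3.24e-06). In each of these the 4 high glucose samples stood above the 4 low glucose samples. The signaling inhibitors of the list rose as well: TRIB3 (0.38, adjusted p = 6.05e-07), which restrains AKT, and DDIT4 (0.40, adjusted p = 1.2e-07) and SESN2 (0.29, adjusted p = 0.000355), which restrain mTORC1. VEGFA, an angiogenic factor also driven by hypoxia, gave -0.029 (adjusted p = 0.616).

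Related lists followed in part. Of 20 cytosolic aminoacyl-tRNA synthetases 7 rose and none fell, led by WARS1 (0.26, adjusted p = 4.05e-06), SARS1 (0.25, adjusted p = 7.19e-05) and IARS1 (0.22, adjusted p = 1.6e-05), the enzymes that charge tryptophan, serine and isoleucine tRNAs, and 11 rose with quantile normalization. EIF4EBP1, a repressor of translation initiation, rose (0.32, adjusted p = 0.000841), and so did EEF1A1 (0.23, adjusted p = 8.71e-06), the most used elongation factor, whose processed pseudogenes make its count uncertain. The change of EEF1A1 was 0 with quantile normalization. That scaling gives a gene of constant rank the same value in all samples, so it cannot test this rise.

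Promoters of 2 ATF4 list genes are shown because they carry the amino acid response element that their list is known for. The letters TGATGNAA, searched on both strands from 250 bases before to 50 after the first listed start, were found in 6 of 31 list members with a promoter (19.4%) and in 1.70% of 10831 tested genes. Those members were ATF3, CHAC1, ASNS, SLC7A1, SLC3A2 and CARS1. Sequences are from RefSeq, build GRCh38.p14, read 5′ to 3′ on the strand of the gene, with the match in capitals. CHAC1 lies on the plus strand of chr15:40953221-40953520 and ASNS on the minus strand of chr7:97872359-97872658, and the match starts 209 and 68 bases before the start of transcription, respectively.
CHAC1: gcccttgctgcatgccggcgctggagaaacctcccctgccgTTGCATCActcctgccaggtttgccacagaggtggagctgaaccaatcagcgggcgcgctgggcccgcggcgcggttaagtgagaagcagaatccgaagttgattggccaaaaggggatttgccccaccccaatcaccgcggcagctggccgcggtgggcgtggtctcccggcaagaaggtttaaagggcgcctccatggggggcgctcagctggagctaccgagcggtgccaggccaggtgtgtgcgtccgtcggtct
ASNS: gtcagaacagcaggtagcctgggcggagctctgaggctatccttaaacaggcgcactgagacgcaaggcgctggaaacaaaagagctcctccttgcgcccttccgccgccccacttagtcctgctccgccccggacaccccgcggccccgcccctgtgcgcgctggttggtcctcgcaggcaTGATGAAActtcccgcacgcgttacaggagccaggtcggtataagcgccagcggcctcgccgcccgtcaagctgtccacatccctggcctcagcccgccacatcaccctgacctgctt

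Protein folding and oxidative stress genes rose in smaller numbers. In the unfolded protein response list 10 of 36 rose and 2 fell, with a median of 0.081. Those falls numbered 0 with quantile normalization, 0 without high glucose replicate 1 or 2, 1 without low glucose replicate 1 or 3 or high glucose replicate 3. HERPUD1, a component of the degradation machinery of the endoplasmic reticulum, had 2049, 2112, 2018 and 2027 at 5 mM and 2645, 2586, 2577 and 2530.0 at 25 mM (log2 fold change 0.33, SE 0.032, adjusted p = 1.51e-06), and DNAJB9, a chaperone partner of the main luminal chaperone, rose similarly (0.31, adjusted p = 8.49e-05). That chaperone, HSPA5 (BiP), changed by 0.077, a call lost without low glucose replicate 1, 2 or 3 or high glucose replicate 1, 2, 3 or 4, at 0.067 to 0.087. The HSPA5 call was lost as well with a pseudocount of 5, no filter, quantile normalization or a block for replicate number. The transcription factor XBP1 rose (0.19, adjusted p = 0.00102).

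Of 33 NRF2 and antioxidant genes 13 rose and none fell, with a median of 0.12. NQO1, a quinone reductase and classical NRF2 target, had 3135, 3109, 3127 and 3147 at 5 mM and 3490.3, 3754, 3669.8 and 3768 at 25 mM (log2 fold change 0.23, SE 0.032, adjusted p = 7.78e-05). HMOX1, heme oxygenase, had 413, 404, 426 and 385 at 5 mM and 504, 588, 526 and 582 at 25 mM (log2 fold change 0.43, SE 0.061, adjusted p = 8.84e-05). Groups were apart for both. AKR1C3, an aldo-keto reductase, and TXNRD1, thioredoxin reductase, rose by 0.41 (adjusted p = 0.00366) and 0.11 (adjusted p = 0.0116).

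Of 24 iron genes 6 rose and 2 fell, with a median of 0.011, and the falls numbered 1 with the length correction or quantile normalization. TFRC, the transferrin receptor that imports iron (chr3:195739382-195809024 on GRCh37), had 4071, 4128, 4129 and 4576 at 5 mM and 2150.4, 2229, 2282 and 2077 at 25 mM (log2 fold change -0.95, SE 0.041, adjusted p = 1.64e-10), a fall of 48.3%. FTL and FTH1, the ferritin chains that store iron, rose, and so did SLC39A14, an importer of metal ions. FTL had 27746, 27049.6, 27596 and 23551 at 5 mM and 33371, 32448, 31121 and 32668 at 25 mM (log2 fold change 0.29, SE 0.042, adjusted p = 0.000109), and FTH1 changed by 0.23 (adjusted p = 5.74e-05). No value of TFRC overlapped between the groups. Both ferritin genes have many pseudogenes, so their counts are uncertain. In the lysosome list 10 of 45 rose and 3 fell. Rises included SQSTM1, the autophagy receptor p62, with 19456, 18602, 19596 and 18062 at 5 mM and 23887, 23725, 23566 and 24258 at 25 mM (log2 fold change 0.33, SE 0.029, adjusted p = 4.88e-07), the ceramidase ASAH1 (0.25, adjusted p = 0.000205) and cathepsin CTSL (0.22, adjusted p = 0.000922), while cathepsin CTSC fell (-0.27, adjusted p = 3.58e-05).

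**Figure D3:**
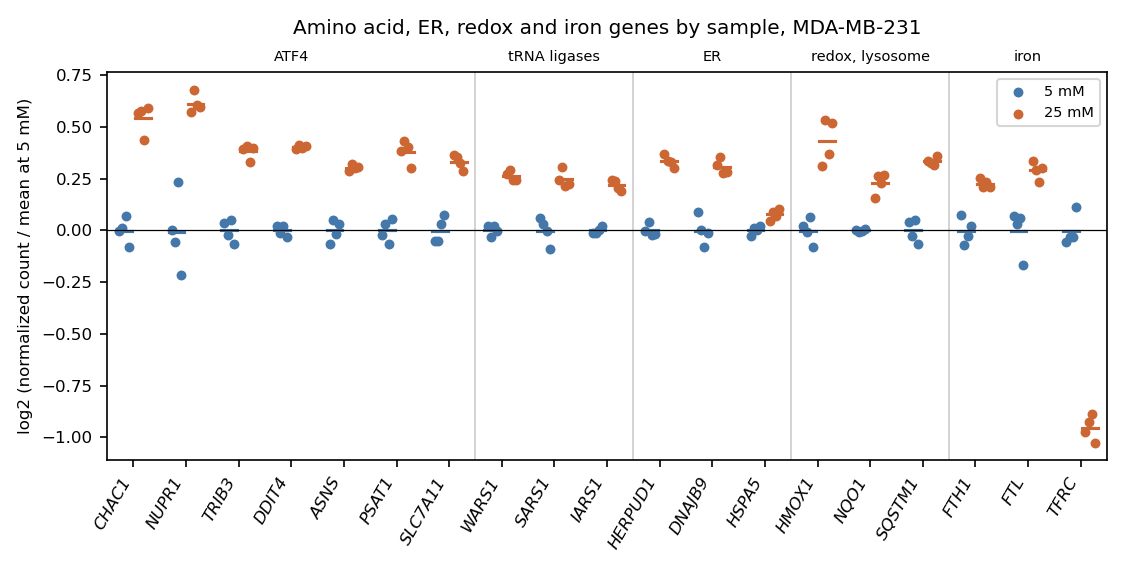
ATF4 target, tRNA synthetase, folding, antioxidant, SQSTM1 and iron genes in the 8 MDA-MB-231 samples, as log2 of the normalized count over the gene's mean at 5 mM glucose. Dots are samples by glucose group and horizontal bars are group means. ATF4 targets and ferritins lie above 0 at 25 mM, and TFRC lies near -0.95.

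The genes of cell division fell together. Of 70 mitosis and spindle genes 68 fell, none rose and the median was -0.46, and of 61 replication genes 48 fell, none rose and the median was -0.33, against 9.37% lower over all genes. In these bulk samples, fewer dividing cells and less RNA per dividing cell cannot be told apart. PLK1, a kinase of mitotic entry, had 1741, 1635, 1729.9 and 1610.0 at 5 mM and 1282, 1223, 1225 and 1197 at 25 mM (log2 fold change -0.45, SE 0.04, adjusted p = 6.05e-07). KIF15, a spindle motor, had 488, 519, 501 and 496 at 5 mM and 327, 321, 342 and 298 at 25 mM (log2 fold change -0.64, SE 0.058, adjusted p = 7.28e-07). TOP2A, the topoisomerase that untangles sister chromatids, had 7584, 7767, 7797 and 8362 at 5 mM and 5495, 5558, 5502 and 5326 at 25 mM (log2 fold change -0.53, SE 0.032, adjusted p = 1.23e-08). For each, all high glucose samples lay below all low glucose samples, and TOP2A was 30.5% lower. CENPF, a kinetochore protein (-0.56, adjusted p = 1.53e-08), cyclin CCNB1 (-0.37, adjusted p = 9.61e-07) and the kinase AURKA (-0.36, adjusted p = 8.95e-07) fell too.

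The cell cycle gene homology region, an element of promoters bound by B-MYB and FOXM1 complexes, reads TTTGAA at its core. These letters, on either strand, were in 40 of 61 mitosis list promoters (65.6%) and in 9.71% of those of tested genes, and CCAAT was in 45 of 61 (73.8%) and 36.5%. A promoter from each of 3 roles, a kinase, a motor and a topoisomerase, is shown with TTTGAA or its reverse complement in capitals. The windows, on GRCh38.p14 from RefSeq, are chr16:23678639-23678938 on the plus strand for PLK1, chr3:44761544-44761843 on the plus strand for KIF15 and chr17:40417847-40418146 on the minus strand for TOP2A.
PLK1: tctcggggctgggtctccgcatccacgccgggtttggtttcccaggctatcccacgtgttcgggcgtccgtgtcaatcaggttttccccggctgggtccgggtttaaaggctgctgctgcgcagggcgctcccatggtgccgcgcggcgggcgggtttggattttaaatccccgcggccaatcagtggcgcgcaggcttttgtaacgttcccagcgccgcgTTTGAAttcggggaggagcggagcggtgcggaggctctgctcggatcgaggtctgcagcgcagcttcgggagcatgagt
KIF15: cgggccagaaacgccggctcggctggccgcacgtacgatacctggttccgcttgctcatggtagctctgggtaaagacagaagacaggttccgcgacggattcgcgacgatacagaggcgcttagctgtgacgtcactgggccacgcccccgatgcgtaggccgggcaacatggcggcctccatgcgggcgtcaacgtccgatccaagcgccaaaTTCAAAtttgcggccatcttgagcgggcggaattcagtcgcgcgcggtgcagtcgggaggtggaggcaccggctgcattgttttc
TOP2A: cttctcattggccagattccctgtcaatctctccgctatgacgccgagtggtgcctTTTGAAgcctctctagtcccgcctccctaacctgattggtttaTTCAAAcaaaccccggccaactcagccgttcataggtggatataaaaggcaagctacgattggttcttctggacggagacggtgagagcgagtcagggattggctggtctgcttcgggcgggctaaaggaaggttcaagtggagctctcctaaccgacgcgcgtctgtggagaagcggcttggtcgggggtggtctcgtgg

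Replication genes fell from nucleotide supply to chromatin assembly. TYMS, thymidylate synthase, had 1838, 1877, 1883 and 1868 at 5 mM and 1194, 1175, 1178 and 1218 at 25 mM (log2 fold change -0.65, SE 0.034, adjusted p = 1.9e-09), which was 36.2% lower. RRM2, the regulated subunit of ribonucleotide reductase, had 1537, 1630.2, 1606 and 1704 at 5 mM and 1041, 1093, 1024 and 1077 at 25 mM (log2 fold change -0.61, SE 0.041, adjusted p = 2.98e-08). The groups were again apart. MCM2 of the replicative helicase (-0.29, adjusted p = 0.000101), the sliding clamp PCNA (-0.35, adjusted p = 3.72e-06) and the chromatin assembly factor CHAF1B (-0.56, adjusted p = 3.31e-05) fell by smaller or like amounts. TYMS overlaps ENOSF1 on the opposite strand, and whether strand was used in counting was not stated. An E2F site form, TTTCCCGC, was in 12 of 53 replication list promoters (22.6%) and in 2.55% of those of tested genes, and another form, TTTGGCGC, in 8 of 53 (15.1%) and 1.05%. The TYMS promoter is shown as an example, from chr18:657403-657702 on the plus strand of GRCh38.p14, with the match in capitals.
TYMS: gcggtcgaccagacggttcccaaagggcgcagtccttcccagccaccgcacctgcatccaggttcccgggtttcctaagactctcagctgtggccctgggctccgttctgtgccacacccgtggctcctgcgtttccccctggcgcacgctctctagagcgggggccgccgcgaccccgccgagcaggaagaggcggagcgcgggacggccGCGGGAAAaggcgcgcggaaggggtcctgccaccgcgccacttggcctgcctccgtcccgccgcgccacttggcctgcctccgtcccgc

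Regulators of the G1 phase were lower more often than higher. In a list of 29 cyclins, kinases, inhibitors and E2F factors 16 fell and 1 rose. E2F1, an activator of S phase genes, had 800.3, 798, 895 and 788 at 5 mM and 554, 530.1, 529 and 568 at 25 mM (log2 fold change -0.59, SE 0.052, adjusted p = 5.45e-07). E2F2, another activator, fell (-0.74, adjusted p = 0.000549), as did E2F8, a repressor of the family (-0.67, adjusted p = 5.37e-05). CCNE2, a cyclin of the G1 to S transition, had 314, 300.4, 302 and 323 at 5 mM and 156, 202, 202 and 164 at 25 mM (log2 fold change -0.78, SE 0.088, adjusted p = 8.71e-06), while its relative CCNE1 had 109, 94.9, 111 and 103 at 5 mM and 98.3, 104, 126 and 91.3 at 25 mM, with overlapping groups (adjusted p = 0.9995). CCND1 fell (-0.20, adjusted p = 4.69e-05). The inhibitor CDKN1A (p21) fell (-0.19, adjusted p = 0.000811), and CDKN1C (p57) was the 1 member that rose (0.28, adjusted p = 0.0199), a call lost without low glucose replicate 2 or 3 or high glucose replicate 1, at 0.24 to 0.26. The CDKN1C call was also lost with the length correction plus a block for replicate number.

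Among repair lists, homologous recombination and Fanconi genes fell in 20 of 41 cases, with 1 rise. BRIP1, a helicase partner of BRCA1, had 463, 444, 492 and 498 at 5 mM and 308, 267, 383 and 348 at 25 mM (log2 fold change -0.55, SE 0.087, adjusted p = 0.000291). The exonuclease EXO1 (-0.52, adjusted p = 5.62e-05) and the helicase BLM (-0.58, adjusted p = 0.000272) also fell, and the 1 rise was RAD50 (0.18, adjusted p = 0.0359), a call lost without low glucose replicate 1, 2 or 3 or high glucose replicate 2, 3 or 4, at 0.13 to 0.20. The RAD50 call was also lost with a block for replicate number. Mismatch repair had 4 falls among 9 genes, including MSH6 (-0.32, adjusted p = 2.42e-05). Base excision repair had 5 falls and 1 rise among 21 (falls numbered 3 without low glucose replicate 1 or 2 or high glucose replicate 2), with UNG (-0.26, adjusted p = 0.000119) and PARP1 (-0.27, adjusted p = 2.67e-05) lower and the glycosylase MPG higher (0.25, adjusted p = 0.0064). In end joining 1 of 12 rose, the polymerase gene POLL, and 3 fell, with PRKDC, the catalytic kinase, at 6405, 6159, 6169.7 and 6821 at 5 mM and 5052, 4811, 5055 and 5069 at 25 mM (log2 fold change -0.35, SE 0.035, adjusted p = 1.7e-06), and XRCC5 lower by little (-0.13, adjusted p = 0.00951), a call lost with quantile normalization (-0.090). Nucleotide excision repair had 1 call among 22, ERCC2, a share under the background of 15.1%, with overlapping groups (-0.22, adjusted p = 0.02), a call lost without low glucose replicate 1 or 3 or high glucose replicate 2 or 3, at -0.16 to -0.20.

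Nuclear structure genes fell as well. In the list of cohesin, nuclear pore and nuclear lamina genes 22 of 35 fell and none rose, with a median of -0.17. LMNB1, a B-type lamin, had 1904, 1892, 1939 and 1904 at 5 mM and 1343, 1373, 1468 and 1365 at 25 mM (log2 fold change -0.46, SE 0.037, adjusted p = 2.2e-07), LMNB2 fell alike (-0.44, adjusted p = 2.56e-07), and the pore protein NUP210 fell (-0.40, adjusted p = 0.000227). Of 18 histone genes 3 rose, the core histone H2BC12 (0.20, adjusted p = 0.00177) among them, and 4 fell, including the variant H2AZ2 (-0.28, adjusted p = 2.36e-05), or 7 with the length correction. Of 35 SR and hnRNP splicing factors 20 fell and none rose. HNRNPD, which also binds AU-rich mRNA, had 4634, 4584, 4492 and 4859 at 5 mM and 3845, 3894, 3985 and 3892 at 25 mM (log2 fold change -0.25, SE 0.031, adjusted p = 2.54e-05), and the splicing coactivator SRRM1 was lower by the same amount (-0.25, adjusted p = 0.00023). The splicing list had 12 falls with quantile normalization and 13 without high glucose replicate 4.

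Of 47 chromatin remodelers and large regulators 14 fell and none rose, and the falls numbered 8 with the length correction or quantile normalization, and 9 without high glucose replicate 2. SUPT16H, a subunit of the FACT histone chaperone, fell (-0.26, adjusted p = 9.77e-06), as did SMARCA4, the ATPase of SWI/SNF complexes (-0.21, adjusted p = 0.000329). After the correction these values were -0.25 and -0.18. For the mitosis list the same correction left 68 falls.

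**Figure D4:**
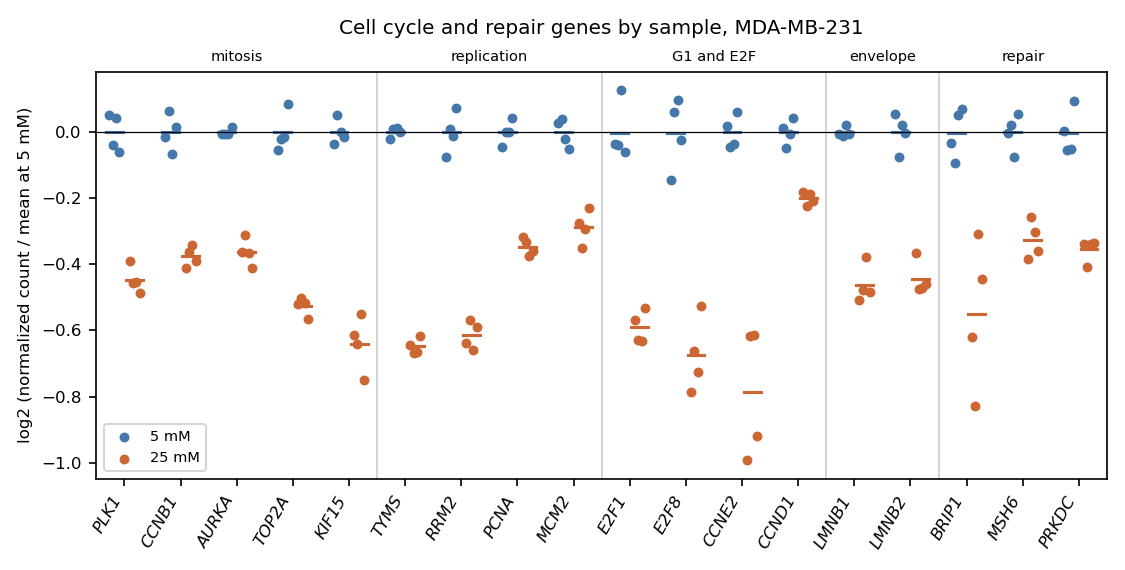
Cell cycle, replication, lamina and repair genes in the 8 MDA-MB-231 samples, as log2 of the normalized count over the gene's mean at 5 mM glucose. Dots are samples by glucose group and horizontal bars are group means. For all 18 genes the 25 mM samples lie below the 5 mM samples.

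Lipid synthesis diverged between sterols and fatty acids. In the sterol list 12 of 28 fell and none rose, with a median of -0.089. HMGCS1, the enzyme before the rate-limiting step of the pathway, had 6975, 7340.0, 7187 and 7686 at 5 mM and 6158, 6291, 6332 and 6184 at 25 mM (log2 fold change -0.22, SE 0.031, adjusted p = 8e-05). INSIG1, which holds the SREBP factors in the endoplasmic reticulum, fell (-0.15, adjusted p = 0.0009), as did squalene epoxidase SQLE (-0.17, adjusted p = 0.00378). The falls of the sterol list numbered 7 with quantile normalization, and 7 without low glucose replicate 3 or high glucose replicate 3. Fatty acid genes were mixed, with 4 rises and 5 falls of 25 (falls numbered 2 without high glucose replicate 2, 3 without low glucose replicate 1 or 3 or high glucose replicate 3). FASN, fatty acid synthase, gave -0.096 (adjusted p = 0.164) and the desaturase SCD gave 0.016 (adjusted p = 0.729). GPAM, the first enzyme of triglyceride synthesis, rose (0.26, adjusted p = 0.0108), and the elongase ELOVL5 fell (-0.18, adjusted p = 0.00124).

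Targets of YAP, a coactivator that responds to cell shape and matrix stiffness, fell in 16 of 26 cases and none rose, with a median of -0.17. CCN1, a matrix-associated signaling protein, had 10967, 10949, 10953 and 10675 at 5 mM and 7749, 7723, 7631 and 7469 at 25 mM (log2 fold change -0.51, SE 0.026, adjusted p = 1.28e-09). CCN2, its relative, had 9215, 8932, 8956 and 9174 at 5 mM and 6173, 6408, 6201 and 6195 at 25 mM (log2 fold change -0.54, SE 0.027, adjusted p = 1.12e-09). THBS1, thrombospondin (chr15:39873280-39891667 on GRCh37), had 22044, 20828, 21712 and 21901 at 5 mM and 15549, 14384, 14942 and 15032 at 25 mM (log2 fold change -0.53, SE 0.029, adjusted p = 2.94e-09). These 3 were between 29.8% and 31.1% lower, with no overlap, while ANKRD1, a further classical target, fell by less (-0.17, adjusted p = 0.000456). In the TGF-beta list 10 of 32 fell and 1 rose. The ligand TGFB2 (-0.30, adjusted p = 8.44e-05), the activin antagonist FST (-0.40, adjusted p = 2.56e-07) and the latent binding protein LTBP3 (-0.40, adjusted p = 5.43e-05) were lower.

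The matrix itself followed the same direction. Of 31 collagens and collagen enzymes 13 fell and 1 rose. COL4A2, a chain of basement membrane collagen, had 4671, 4361, 4629 and 4269 at 5 mM and 2995, 3092, 2957 and 3237 at 25 mM (log2 fold change -0.55, SE 0.038, adjusted p = 3.79e-08), its head-to-head neighbor COL4A1 fell (-0.48, adjusted p = 7.77e-07), and so did COL8A1 (-0.59, adjusted p = 1.54e-08) and COL6A3 (-0.49, adjusted p = 4.43e-07). The crosslinking enzymes split, LOX at 1418, 1425, 1439 and 1500.0 at 5 mM and 1896, 1899.6, 1744 and 1705 at 25 mM (log2 fold change 0.32, SE 0.042, adjusted p = 3.7e-05) and LOXL2 at 5458, 5423, 5713 and 5160.1 at 5 mM and 4373, 4270.5, 4149 and 4376 at 25 mM (log2 fold change -0.34, SE 0.034, adjusted p = 1.81e-06). LOX rose and LOXL2 fell, each without overlap. Fibronectin FN1 fell (-0.26, adjusted p = 1.81e-06).

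Of 23 integrins and laminins 10 fell and 1 rose. LAMB3, a laminin chain (-0.30, adjusted p = 2.98e-05), and ITGB1, the common integrin subunit (-0.17, adjusted p = 0.000476), fell. Among 31 actin cytoskeleton genes 16 fell and 1 rose. The nonmuscle myosin MYH10 had 1469.8, 1353, 1399 and 1436 at 5 mM and 1120.0, 1032, 1018 and 1003 at 25 mM (log2 fold change -0.44, SE 0.044, adjusted p = 1.97e-06), and MYH9 fell by less (-0.26, adjusted p = 9.68e-05). ACTB, beta-actin, was lower (-0.14, adjusted p = 0.00509). With quantile normalization its change was 0, which cannot test its fall, since that scaling gives a gene of constant rank the same value. Under that scaling 10 members of the list fell. MMP14, a membrane-bound collagenase, fell (-0.21, adjusted p = 0.000248), 1 of 5 falls among 21 metalloproteinases and inhibitors.

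The transcription factor SNAI2 (Slug), which represses epithelial genes, fell (-0.38, adjusted p = 0.00179), while ZEB1 gave -0.08 (adjusted p = 0.31). The list of EMT factors, cadherins and mesenchymal markers had 5 of 24 up and 5 down. It holds epithelial as well as mesenchymal genes, so equal counts give no direction. The rises were ESRP2, CLDN4, CLDN7, OCLN and S100A4, and the falls SNAI2, CDH11, VIM, FN1 and CD44. The falls numbered 3 with quantile normalization, and the rises numbered 2 with the length correction, 0 without high glucose replicate 2, 1 without high glucose replicate 1, 3 or 4, 2 without low glucose replicate 1 or 2, 3 without low glucose replicate 3 or 4. In the Notch and hedgehog list 7 of 26 fell and none rose, among them the Notch ligand JAG1 (-0.27, adjusted p = 3.01e-06), the ubiquitin ligase NEURL1B, which acts on Notch ligands, at 223, 230.0, 217 and 198 at 5 mM and 118, 139.9, 124 and 113 at 25 mM (log2 fold change -0.81, SE 0.089, adjusted p = 6.89e-06), the hedgehog effector GLI2 (-0.55, adjusted p = 0.0026) and the hedgehog-binding protein HHIP (-0.54, adjusted p = 3.46e-05).

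Immediate early genes were lower in part, 7 of 24 down and 3 up, and the falls numbered 4 without low glucose replicate 1 or 3 or high glucose replicate 1 or 3. EGR1, a zinc finger factor induced quickly by growth factor signals (chr5:137801168-137804992 on GRCh37), had 433, 421, 455 and 378 at 5 mM and 257, 225, 264 and 257 at 25 mM (log2 fold change -0.75, SE 0.072, adjusted p = 1.31e-06). The phosphatase DUSP1, which inactivates MAP kinases, fell (-0.58, adjusted p = 1.36e-05), as did the AP-1 subunit FOSL1 (-0.17, adjusted p = 0.000892), while KLF4 rose (0.24, adjusted p = 0.000157) and the ERK phosphatase DUSP6 gave 0.028 (adjusted p = 0.56). In the EGFR list HBEGF, a ligand, had 877, 953, 952 and 921 at 5 mM and 649, 577, 660.4 and 632 at 25 mM (log2 fold change -0.56, SE 0.051, adjusted p = 7.46e-07), and the feedback inhibitor ERRFI1 rose (0.12, adjusted p = 0.00433). HBEGF was 32.0% lower, with the 2 groups apart.

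NF-kB genes moved in both directions, 5 up and 5 down of 31. The rises included ICAM1, an adhesion molecule for leukocytes, at 986, 984, 1039 and 867 at 5 mM and 1295, 1309.5, 1322 and 1309.7 at 25 mM (log2 fold change 0.44, SE 0.049, adjusted p = 8.14e-06), the macrophage growth factor CSF1 at 8466, 8504, 9033 and 7885 at 5 mM and 11657, 10742, 10748 and 11825 at 25 mM (log2 fold change 0.41, SE 0.041, adjusted p = 1.92e-06), and the inhibitor NFKBIA (0.34, adjusted p = 7.6e-05). Falls included the cytokine IL11 (chr19:55875750-55881831 on GRCh37) at 454, 433, 474 and 453 at 5 mM and 253, 298, 287 and 262 at 25 mM (log2 fold change -0.72, SE 0.065, adjusted p = 6.62e-07), the chemokine CXCL8 (-0.41, adjusted p = 0.00428) and the urokinase PLAU (-0.32, adjusted p = 1.08e-06). Of 41 interferon-stimulated genes 10 rose and 1 fell, with a median of 0.10. RIGI, an RNA sensor, had 2213, 2351, 2279 and 2289.6 at 5 mM and 2678, 2802, 2616 and 2692 at 25 mM (log2 fold change 0.24, SE 0.034, adjusted p = 8.82e-05), whereas ISG15 gave 0.045 (adjusted p = 0.659). The checkpoint ligand CD274 (PD-L1) fell (-0.52, adjusted p = 0.00046).

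**Figure D5:**
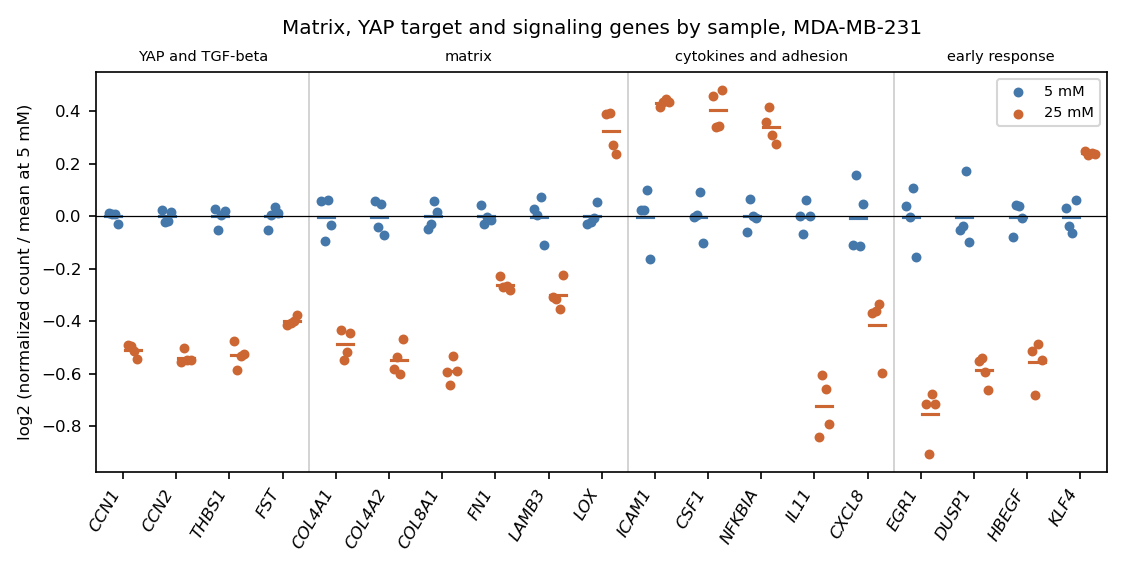
YAP target, matrix, cytokine and early response genes in the 8 MDA-MB-231 samples, as log2 of the normalized count over the gene's mean at 5 mM glucose. Dots are samples by glucose group and horizontal bars are group means. At 25 mM LOX, ICAM1, CSF1, NFKBIA and KLF4 lie above their 5 mM samples, and the other genes, from CCN1 to HBEGF, lie below.

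Families were defined by the letters of their symbols, without pathway knowledge, and only some are described. The KIF and COL families hold genes already counted in the mitosis and collagen lists, so they are not a separate view. Some SLC rises were likewise counted in the ATF4 list (SLC7A11, SLC3A2, SLC1A4, SLC1A5, SLC38A2 and SLC6A9). The rises of SEC61B and SEC61A1 were counted in the unfolded protein response list. Solute carriers (SLC) were the largest family to lean upward, with 33 of 228 higher and 9 lower, and a median of 0.049. The share called in either direction was 18.4%, near the 15.1% of all genes. The largest called changes were in scarce transcripts. SLC16A14 had 2.86, 7.83, 4.47 and 3.08 at 5 mM and 10.7, 14.7, 13.0 and 17.1 at 25 mM (log2 fold change 1.49, SE 0.40, adjusted p = 0.0175), a call lost without high glucose replicate 2 or 4, at 1.38 to 1.45. SLC6A20 had 11.4, 20.5, 11.2 and 12.3 at 5 mM and 31.1, 23.1, 28.8 and 24.7 at 25 mM (log2 fold change 0.94, SE 0.26, adjusted p = 0.0196), a call lost without low glucose replicate 1 or high glucose replicate 1 or 3, at 0.87 to 0.91. Kinesins (KIF) fell in 16 of 30 cases and 13 with the length correction, the largest being KIF15 and KIF18B (-0.56, adjusted p = 5.28e-07). Numbered collagens (COL) fell in 8 of 22, led by COL8A1 and COL4A2.

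Of 23 SEC genes, which serve the secretory pathway, 6 rose and none fell, including SEC61B of the translocon (0.20, adjusted p = 0.00562) and SEC11C of the signal peptidase (0.26, adjusted p = 0.0262), a call lost without low glucose replicate 1 or high glucose replicate 2 or 3, at 0.19 to 0.23. The SEC11C call was also lost with the length correction, and both calls with that correction plus a block for replicate number. The GALNT family, which starts mucin-type O-glycosylation in the Golgi, had 5 falls of 14 and no rise, led by GALNT16 (-0.78, adjusted p = 0.0293), a call lost without low glucose replicate 1, 3 or 4 or high glucose replicate 2 or 3, at -0.56 to -0.79, and GALNT2 (-0.29, adjusted p = 1.88e-05). TRIM ubiquitin ligases had 9 rises and 2 falls of 45, TRIM24 (-0.33, adjusted p = 0.000255) and TRIM3 (0.28, adjusted p = 0.00688) being the largest. Zinc finger genes (ZNF), the largest family of all, had 8 rises and 12 falls of 443, or 4.51% called, well under the 15.1% of all genes.

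The response was set against that of MDA-MB-468 by the interaction of line and glucose, which limma called for 5288 of 17115 genes, or 30.9%. The lists that moved most in MDA-MB-231 were among those that differed. Their change in MDA-MB-231 is itself part of the interaction, so their shares cannot be compared with 30.9%. For the mitosis list the interaction was called in 62 of 70 genes, higher in MDA-MB-468 in 61 of them, and for replication in 40 of 61, higher in 37. The median change of the mitosis list was -0.46, against 0.024 in the other line. PLK1, for example, changed by -0.45 and, in the other line, by 0.71 (interaction 1.16, adjusted p = 3e-10).

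For the ATF4 list the interaction was called in 25 of 38 genes, lower in MDA-MB-468 in 24 of them, and the median there was -0.11. CHAC1 changed by 0.54 and -0.47, respectively (interaction -1.01, adjusted p = 8.29e-08), and SLC7A11 by 0.33 and -0.70 (interaction -1.03, adjusted p = 6.22e-09). YAP targets differed in both directions, 5 higher and 11 lower in MDA-MB-468 of 26, and their median was -0.37 there. CCN1, at -0.51 and -0.52, and THBS1, at -0.53 and -0.51, had interactions of -0.011 (adjusted p = 0.876) and 0.016 (adjusted p = 0.836), which missed the threshold. MT-CYB fell in MDA-MB-231 and had -0.23 in MDA-MB-468, with an interaction of 0.017 (adjusted p = 0.898). TFRC, the largest fall among the genes described, changed by -0.95 and -0.24 (interaction 0.71, adjusted p = 2.49e-08).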

How the data were processed

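RNA was sequenced from 16 samples, 4 in each of 4 groups, and groups and replicate numbers follow the labels. The authors deposited a normalized signal for each gene, which is its read count over the size factor of the library. The steps between values showed whole reads for 100% of values in each library, so reads could be recovered. The study's methods name Trimmomatic, TopHat, hg19 and an Ensembl annotation, while the submitters' processing notes name hg38 and edgeR, so the build is uncertain. Gene positions here are those of GENCODE on GRCh37 and promoters those of RefSeq on GRCh38.p14. The counting tool and its use of strand are not given in the sources used here, and 23 of the genes described overlap a tested gene on the opposite strand. Of 18332 identifiers, 16633 had a symbol.

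Genes that reached 0.5 CPM in 2 of the 8 samples were fitted on log2(value + 1) with limma 3.58.1 in R 4.3.3 (lmFit, eBayes with trend, two-sided, Benjamini-Hochberg over all genes tested, threshold 0.05). The difference between lines was the interaction of a limma fit with 4 group means over 16 samples. Fold changes on this scale understate changes of scarce genes. The fits were tested on simulated data.

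The members, the gene lists and the rule for named genes were chosen with earlier results of these data known. Named genes were drawn from key members of lists and the 3 largest rises and falls in each list. Those rises and falls needed at least 5 CPM in the higher group. Also drawn on were the 10 largest rises and falls of all genes and the 2 largest called changes in each family described. Not every gene under this rule is named, so the genes described are not always the largest changes. Alternatives were pseudocounts of 0.5 and 5, no filter, 1 CPM in 4 samples, TMM and quantile scaling, edgeR 4.0.16 and DESeq2 1.42.0 on recovered reads, a length correction, a replicate block, a stricter threshold and leaving out each replicate. Some genes of the lists are counted but not reported here by name.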

Additional observations from a re-analysis of the deposited data

Results flagged for a closer look

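Of 306 groups of 4 samples examined over the genes described, 16 had a lowest or highest sample far from the other 3 by Dixon's criterion, and chance flags about 1 group in 20. In low glucose replicate 1 it was the normalized count of SEC61B (1048). For low glucose replicate 2 it was the normalized count of SLC6A20 (20.5). In low glucose replicate 3 they were the normalized counts of IDH2 (426) and E2F1 (895). For low glucose replicate 4 they were the normalized counts of GFPT1 (4483), TFRC (4576), FTL (23551), AURKA (2225) and CCN1 (10675). In high glucose replicate 1 it was the normalized count of LMNB2 (2956). For high glucose replicate 2 they were the normalized counts of UNG (1014), PRKDC (4811) and CCN2 (6408). In high glucose replicate 3 it was the normalized count of ANKRD1 (6379). For high glucose replicate 4 they were the normalized counts of OGA (2496) and CXCL8 (146). All 16 genes stayed past the threshold, in the same direction, without the library in question.

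The response to glucose differed between the lines for 110 of the genes described, by the limma interaction at an adjusted p below 0.05, where 30.9% of all genes did. Many of the genes described were chosen by their change in MDA-MB-231, which is part of the interaction, so these shares cannot be compared. Values below are the log2 response of MDA-MB-468 minus that of MDA-MB-231. The cause of these differences was not tested.

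Among genes of glucose handling and mitochondria, the response was higher in MDA-MB-468 for SLC2A1 (0.30), LDHA (0.17), PFKFB3 (0.65), PGK1 (0.16), IDH2 (0.24) and FH (0.69). It was lower for ENSG00000117289 (-1.57), ARRDC4 (-2.29), ARRDC2 (-0.28), GFPT1 (-0.29) and OGA (-0.26). Of genes of the amino acid and unfolded protein responses and translation, the response was higher in MDA-MB-468 for XBP1 (0.15) and HSPA5 (0.15). Lower responses were those of CHAC1 (-1.01), NUPR1 (-0.47), TRIB3 (-0.26), DDIT4 (-0.24), ASNS (-0.43), PSAT1 (-0.61), SLC7A11 (-1.03), SESN2 (-0.65), VEGFA (-0.15), WARS1 (-0.40), SARS1 (-0.27), IARS1 (-0.39), EIF4EBP1 (-0.25), EEF1A1 (-0.14) and HERPUD1 (-0.46). Among antioxidant, iron and lysosome genes, the response was higher in MDA-MB-468 for NQO1 (0.35) and TFRC (0.71). Those with a lower response were HMOX1 (-0.50), TXNRD1 (-0.29), FTL (-0.31), SQSTM1 (-0.41), ASAH1 (-0.26) and CTSL (-0.53). Of cell cycle, replication and nuclear lamina genes, the response was higher in MDA-MB-468 for PLK1 (1.16), CCNB1 (0.50), AURKA (0.50), KIF15 (0.64), TOP2A (0.55), CENPF (0.57), TYMS (0.80), RRM2 (0.49), MCM2 (0.51), PCNA (0.45), CHAF1B (0.77), CCNE2 (0.92), E2F1 (0.82), E2F2 (0.99), E2F8 (0.92), CDKN1A (1.02), LMNB1 (0.85), LMNB2 (0.58) and NUP210 (0.62). A lower response was seen for CDKN1C (-0.62). Among repair and histone genes, the response was higher in MDA-MB-468 for EXO1 (0.42), BLM (0.50), MSH6 (0.32), UNG (0.42), PARP1 (0.65), ERCC2 (0.29), PRKDC (0.19), XRCC5 (0.13), H2AZ2 (0.65) and H2BC12 (0.51). It was lower for RAD50 (-0.34).

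Of sterol and fatty acid genes, the response was higher in MDA-MB-468 for HMGCS1 (0.66), INSIG1 (0.28), FASN (0.56) and SCD (0.18). Lower responses were those of GPAM (-0.87). Among YAP, TGF-beta, matrix and actin genes, the response was higher in MDA-MB-468 for LTBP3 (0.68), COL4A1 (0.64), COL4A2 (0.35), COL8A1 (0.86), LOXL2 (0.49), LAMB3 (0.43), MYH10 (0.27), ACTB (0.27) and MMP14 (0.24). Those with a lower response were ANKRD1 (-1.01) and TGFB2 (-0.50). Of signaling, inflammatory, splicing and chromatin genes, the response was higher in MDA-MB-468 for PLAU (0.78), EGR1 (0.52), DUSP1 (0.61), HBEGF (0.79), NEURL1B (1.75), GLI2 (1.99), HNRNPD (0.43), SUPT16H (0.21) and SMARCA4 (0.21). A lower response was seen for ICAM1 (-0.91), CSF1 (-0.69), NFKBIA (-0.86), CXCL8 (-1.12), DUSP6 (-0.44), KLF4 (-0.71) and RIGI (-1.09). Among genes named from families, the response was higher in MDA-MB-468 for KIF18B (0.66), TRIM24 (0.41), GALNT2 (0.40) and GALNT16 (1.60). It was lower for SLC6A20 (-1.45) and TRIM3 (-0.56). Of metal-binding and zinc transport genes, the response was higher in MDA-MB-468 for MT2A (1.03), MT1E (2.30), MT1X (1.01) and SLC30A1 (0.88). Lower responses were those of SLC39A10 (-0.85).

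Counts of members with a higher and a lower response in MDA-MB-468 were 61 and 1 in the mitosis and spindle list, 37 and 3 in the DNA replication and S phase list, 10 and 7 in the homologous recombination and Fanconi list, 1 and 24 in the ATF4 amino acid response list, 7 and 8 in the NRF2 and antioxidant list. They were 15 and 4 in the sterol synthesis list, 5 and 11 in the YAP targets list, 14 and 3 in the collagens and collagen enzymes list, 20 and 1 in the SR and hnRNP splicing factors list and 13 and 3 in the cohesin, nuclear pore and nuclear lamina list.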

How the results depend on the processing

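Of the 140 genes described that passed the threshold, 126 did so in each alternative fit that gave them an adjusted p, the stricter threshold aside, and none turned its direction. ACTB and EEF1A1 had a change of 0 with quantile normalization, which fixes the value of a gene that keeps its rank in all samples and so cannot test these changes. With a threshold of 0.01 on the adjusted p, 1119 genes were called, 347 higher and 772 lower. Other tools gave similar totals, 2244 genes by edgeR and 2085 by DESeq2, of which 2170 and 1981 were among the 2245. Without 1 library each, rises ranged from 561 to 917. Falls in the sterol list ranged from 7 to 14 and in the splicing list from 13 to 19, and quantile normalization gave 7 and 12.

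The replicate numbers shared by the labels were tested as pairs. Deviations of samples with the same number correlated at -0.040, -0.031, -0.0051 and -0.040. These values gave no sign of pairing but cannot exclude it, since all genes tested counted alike, scarce ones included. With a replicate block, 571 genes rose and 1053 fell, 626 and 1055 with the length correction added, and NRF2 list rises numbered 8. For the difference between lines the block gave 4774 calls in place of 5288, 2674 higher and 2100 lower.

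Depth limits scarce genes such as SLC16A14. The floor of 3 reads in a library was 0.123 to 0.192 CPM and covers counting error only.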

Other observations

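Several genes that bind or move zinc changed in MDA-MB-231. They were on no list and were chosen after their values were seen. MT2A, a metallothionein that binds zinc and copper, had 6432, 6339, 6810.1 and 5792 at 5 mM and 4301, 4359, 3996 and 4526 at 25 mM, so that all high glucose samples lay below all low glucose samples (log2 fold change -0.56, SE 0.045, adjusted p = 2.12e-07). Its relative MT1E had 412, 449, 422 and 432 at 5 mM and 273, 255, 244 and 249 at 25 mM (log2 fold change -0.75, SE 0.061, adjusted p = 2.71e-07), a fall of 40.4%. MT1X gave -0.15 (adjusted p = 0.18) and the scarce MT1A gave -0.35 (adjusted p = 0.507), both short of the threshold. Metallothioneins are similar in sequence, so reads may be split among them.

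SLC30A1, which exports zinc from the cell, had 439, 459, 462 and 537 at 5 mM and 347, 351, 333 and 404 at 25 mM (log2 fold change -0.40, SE 0.072, adjusted p = 0.001). SLC39A10, a zinc importer, had 1823, 1902, 1884 and 2176 at 5 mM and 2685, 2504, 2603 and 2463 at 25 mM (log2 fold change 0.40, SE 0.048, adjusted p = 1.69e-05). The exporter, MT2A and MT1E were lower and the importer higher, with no overlap between the groups for either transporter. In MDA-MB-468 the changes had the opposite sign, 0.47 for MT2A, 1.56 for MT1E, 0.48 for SLC30A1 and -0.45 for SLC39A10, and the difference between lines passed the threshold for each of these 4 genes.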
